A study of Mus musculus with 6 samples.

Results

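Enteroendocrine cells are the hormone-secreting cells of the gut epithelium. Transcripts of 38 enteroendocrine genes were followed in sorted intestinal stem cells of mice, 13 of them for transcription factors, 11 for hormones or enzymes that make transmitters and 14 for secretory granule proteins and other markers. They were chosen by name, for their known roles in these cells, but with earlier results of these data known, so that their shared direction is a description of the set. All 38 were among the 53379 gene IDs counted. Cells had been sorted from proximal small intestinal crypts as those brightest for Lgr5-EGFP, a reporter of the R-spondin receptor that marks stem cells of the crypt base. There were 3 control libraries, from C57BL/6 mice of genotype Lgr5-EGFP-IRES-CreERT2;Rosa-tdTomato, and 3 libraries labelled Klf5-KO, from mice that also carried Klf5fl/fl. In both groups mice were given tamoxifen, 1 mg a day for 5 days, which switches on the Cre recombinase made from the Lgr5 locus. The floxed Klf5 alleles can thus be recombined only in cells with an active Lgr5 allele and in their descendants. The sources used here give neither ages nor the time from tamoxifen to sorting, nor whether the replicates were different mice. By Xist and Ddx3y transcripts each group held 1 male library (control replicate 1; Klf5-KO replicate 3) and 2 female ones, and so RNA of at least 2 mice. The p-values measure the spread among these 6 libraries.

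New enteroendocrine cells arise throughout life from crypt stem cells. Notch signalling falls in a daughter cell, Atoh1 marks it as secretory, and a pulse of Neurog3 commits it to the endocrine fate. Factors such as Neurod1, Insm1, Pax4 and Rfx6 then direct maturation and the choice between cell types that make ghrelin, glucagon-like peptides, GIP, cholecystokinin, secretin, somatostatin or serotonin. Peptide precursors are packed with granins into dense-core granules, cut there by prohormone convertases, and released in response to nutrients.

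Depth was 61563625 to 77666540 counts per library. Klf5, a Kruppel-like transcription factor and the gene targeted, stood at 480.3, 512 and 547 CPM (counts per 1000000, scaled to library size) in control replicates 1, 2 and 3 and at 879.9, 918 and 877 CPM in those labelled Klf5-KO (log2 fold change 0.80, SE 0.10, adjusted p = 6.3e-04 by the quasi-likelihood test of edgeR, used throughout). Klf5 was thus higher in all 3 libraries with the knockout label than in any control. A count over the whole gene cannot tell the floxed exons from the rest, so it neither shows the deletion nor checks the labels, and directions compare libraries with the Klf5-KO label to those with the control label. Names such as Klf5-KO replicate 1 stand for the label alone. The stem cell genes Lgr5 and Olfm4 were present in every library, Lgr5 at 132, 163 and 128 CPM in control replicates 1, 2 and 3 and 96.8, 81.2 and 84.9 CPM in those labelled Klf5-KO. Control replicate 3 stood apart in Paneth cell markers, whose summed level over 17 genes was 1873, 2349 and 22395 CPM in control replicates 1, 2 and 3 and 10737, 10526 and 12973 CPM in those labelled Klf5-KO. Results that this library moves are given with and without it.

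The sorted cells held enteroendocrine transcripts at low levels, and most of these genes fell with the Klf5-KO label. Of the 38 genes, 36 passed the filter on low counts. At an adjusted p under 0.05, 24 of the 36 fell and none rose, against 12.5% of all 19339 genes tested called lower and 13.3% called higher. The median log2 fold change of the 36 was −1.04, beside −0.01 over all genes tested. By role, 11 of 13 transcription factors fell (median −1.40), 4 of 9 tested hormone and transmitter genes (median −0.78), and 9 of 14 granule and other markers (median −0.99). In 26 of the 36 every library labelled Klf5-KO lay below every control library, against 21% of all genes tested. All 36 exceeded the filter's level of 0.144 CPM in every library labelled Klf5-KO, so none was tested only because it was high in the controls. In sorted populations, fewer enteroendocrine cells and less RNA per cell cannot be told apart.

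With control replicate 3 left out, 23 genes fell and 1, Reg4, rose, beside 13.4% and 13.8% of all genes, and the median was −0.89. Without Klf5-KO replicate 1, 15 fell, beside 7.32% of all genes: 8 transcription factors, 1 hormone gene and 6 granule and other markers. Together the 38 genes made up 0.0322 to 0.0737% of the scaled counts of a library. Their summed level was 390.0, 441 and 737 CPM in control replicates 1, 2 and 3 and 364, 322 and 349.9 CPM in those labelled Klf5-KO, so that control replicate 3 was far above the rest and control replicate 1 was close to Klf5-KO replicate 1. Of the 36 tested genes, 28 were highest of all 6 libraries in control replicate 3, against 21.4% of all genes tested. Ddc and Reg4 did not pass the test. With them left out, a choice made after seeing the values, the sums in control replicates 1, 2 and 3 were 326, 379 and 556 CPM. Those of the libraries labelled Klf5-KO were 218, 229 and 202 CPM. The groups did not overlap with or without these 2 genes.

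**Figure D1:**
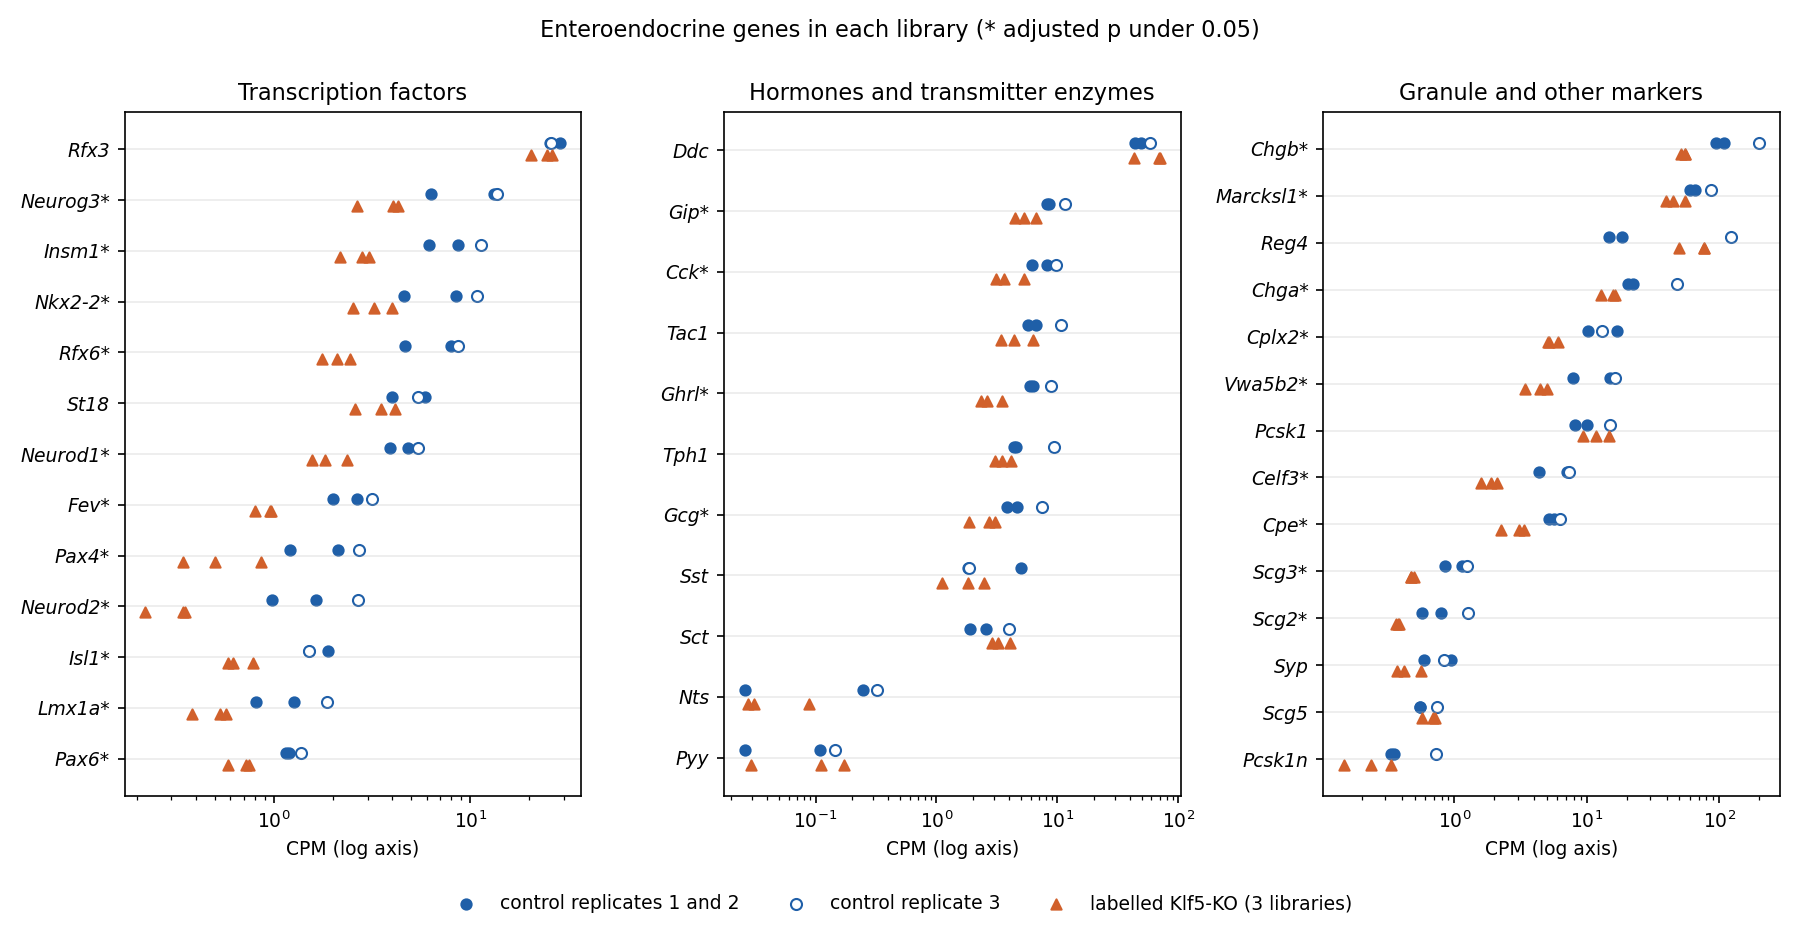
Level of each of the 38 enteroendocrine genes in each library, in CPM on a log axis, by role; filled circles are control replicates 1 and 2, open circles control replicate 3 and triangles the 3 libraries labelled Klf5-KO, and an asterisk marks an adjusted p under 0.05. In 11 of 13 transcription factors the triangles lie left of every circle, while Rfx3 and St18 overlap. Of the other genes, Ddc, Sct, Sst, Tac1, Nts, Pyy, Reg4, Pcsk1, Scg5 and Pcsk1n overlap.

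The genes' order of abundance was taken per kilobase of exon, as CPM per kb in the controls. Reg4 (51.2), Chgb (48.9) and Marcksl1 (44.2) stood highest on this scale, Reg4 through control replicate 3, whose level was 7.40 times the mean of the other controls. They were followed by Gip (13.8), Ddc (11.2) and Chga (10.98). Neurog3, at 6.64 CPM per kb, was the most abundant of the 13 transcription factors per length and lay close to the hormone genes Ghrl (6.53) and Cck (6.16). In the libraries labelled Klf5-KO, Neurog3 stood at 2.19 CPM per kb, near Rfx3 (2.14). Cck (3.07) and Ghrl (2.59) then lay below the secretin gene Sct (5.23), which they exceeded in the controls (4.38 CPM per kb for Sct).

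Sequences upstream of 5 of these genes are shown, 4 that fell (1 that starts the lineage, Neurog3, 1 of serotonin and enterochromaffin cells, Fev, the hormone gene Cck and the granin gene Chga) and Sct, which did not pass the test. They were taken from RefSeq for GRCm38.p6, the assembly named mm10, and cover up to 250 bases before the transcript start, leaving out bases that the count files assign to the gene. Capitals mark matches on either strand to CAGATG, the E-box favoured by neurogenin and NeuroD factors, to CAGCTG, another E-box, to CCNCNCCC, the type of site bound by Kruppel-like factors, and to the cAMP response element TGACGTCA. Matches to CCNCNCCC can overlap each other.
Neurog3, chr10:62132840-62133089, plus strand: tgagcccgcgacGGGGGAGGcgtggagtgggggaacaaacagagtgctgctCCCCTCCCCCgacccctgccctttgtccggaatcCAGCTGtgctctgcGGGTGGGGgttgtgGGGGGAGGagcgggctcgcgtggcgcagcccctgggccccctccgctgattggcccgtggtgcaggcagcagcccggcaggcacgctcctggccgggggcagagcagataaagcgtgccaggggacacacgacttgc
Fev, chr1:74885420-74885658, minus strand: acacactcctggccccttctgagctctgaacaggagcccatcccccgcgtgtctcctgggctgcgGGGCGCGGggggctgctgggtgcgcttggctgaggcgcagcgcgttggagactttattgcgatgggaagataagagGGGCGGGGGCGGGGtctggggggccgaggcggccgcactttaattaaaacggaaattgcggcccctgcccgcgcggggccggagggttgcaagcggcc
Cck, chr9:121495695-121495944, minus strand: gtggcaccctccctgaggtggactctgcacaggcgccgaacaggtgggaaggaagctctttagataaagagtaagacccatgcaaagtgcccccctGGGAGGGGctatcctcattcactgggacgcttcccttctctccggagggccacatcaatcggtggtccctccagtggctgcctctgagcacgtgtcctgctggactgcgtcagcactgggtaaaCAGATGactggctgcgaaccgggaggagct
Chga, chr12:102554691-102554940, plus strand: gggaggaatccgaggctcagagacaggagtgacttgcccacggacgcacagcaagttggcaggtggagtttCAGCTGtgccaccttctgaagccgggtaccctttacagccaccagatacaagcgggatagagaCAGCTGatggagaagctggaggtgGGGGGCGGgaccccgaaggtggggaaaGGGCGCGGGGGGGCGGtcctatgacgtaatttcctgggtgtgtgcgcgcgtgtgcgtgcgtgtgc
Sct, chr7:141279134-141279383, minus strand: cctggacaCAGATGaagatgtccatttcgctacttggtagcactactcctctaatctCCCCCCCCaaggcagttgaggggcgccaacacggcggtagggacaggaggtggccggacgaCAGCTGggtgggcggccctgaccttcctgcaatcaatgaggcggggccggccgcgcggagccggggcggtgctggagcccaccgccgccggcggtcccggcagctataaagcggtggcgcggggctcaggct

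Neurog3 held 5 matches to CCNCNCCC and 1 to CAGCTG in this window, Fev 4 to CCNCNCCC and no E-box of either kind, and Cck 1 each to CAGATG and CCNCNCCC. Sct held 1 match to each E-box and 1 to CCNCNCCC, and so carried the same kinds of letters as genes that fell. RefSeq windows were at hand for 34 of the 38 genes (not for Pax4, Insm1, St18 and Cpe). CCNCNCCC was found in 16 of 21 windows of genes that fell, in 10 of 13 windows of the other enteroendocrine genes and in 45.9% of all 32851 windows of that length. CAGATG was found in 4 of 21, 2 of 13 and 14.4% of these windows, CAGCTG in 7 of 21, 2 of 13 and 13%, and TGACGTCA in 3 of 21, 2 of 13 and 1.55%. A match is a match of letters and does not show that a factor binds there.

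The transcription factor that starts the lineage fell. Neurog3, a basic helix-loop-helix factor made for a short time in endocrine progenitors (chromosome 10, 62133090 to 62134763 in mm10), stood at 6.32, 13.3 and 13.8 CPM in control replicates 1, 2 and 3 and at 4.06, 4.28 and 2.64 CPM in those labelled Klf5-KO. Each library labelled Klf5-KO was below each control, and control replicate 1 was the lowest control; the fall was 3.04-fold (log2 fold change −1.60, SE 0.30, adjusted p = 0.0047). Its direct target Neurod1, which promotes cell cycle exit and hormone gene expression (chromosome 2, 79452521 to 79456751), had 3.92, 4.82 and 5.41 CPM in the controls and 1.83, 2.37 and 1.56 CPM in libraries labelled Klf5-KO (log2 fold change −1.30, SE 0.22, adjusted p = 0.0026). Neurod1 shares 201 exon bases on its strand with Cerkl, and reads there could go uncounted. The related Neurod2 had the largest fall of the 36 tested genes, from 0.976, 1.63 and 2.70 CPM to 0.351, 0.343 and 0.221 CPM (log2 fold change −2.53, SE 0.41, adjusted p = 0.0022), at levels near or below 1 CPM in most libraries. Control replicate 3 was the highest in all 3 genes, and without it the log2 fold changes were −1.42 (SE 0.31, adjusted p = 0.013), −1.19 (SE 0.22, adjusted p = 0.0059) and −2.10 (SE 0.34, adjusted p = 0.0036).

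Factors of endocrine progenitors fell alongside. Insm1, a zinc finger factor that acts early after Neurog3, had 6.16, 8.69 and 11.3 CPM in control replicates 1, 2 and 3 and 2.80, 3.05 and 2.18 CPM in those labelled Klf5-KO (log2 fold change −1.70, SE 0.24, adjusted p = 0.0011). Rfx6, a winged-helix factor needed for the production of several gut hormones, had 4.63, 7.96 and 8.63 CPM in the controls and 2.45, 2.09 and 1.75 CPM in libraries labelled Klf5-KO (log2 fold change −1.75, SE 0.25, adjusted p = 0.0013). Pax4, a paired-box factor of progenitors, had 1.21, 2.13 and 2.71 CPM in the controls and 0.862, 0.498 and 0.345 CPM in libraries labelled Klf5-KO (log2 fold change −1.82, SE 0.40, adjusted p = 0.0095). For each of these genes the groups did not overlap, and Rfx6 was lower by 3.37-fold and Insm1 by 3.25-fold. The homeobox factor gene Nkx2-2, which allots cells among the hormone-producing types, had 4.59, 8.43 and 10.9 CPM in the controls and 3.24, 4.00 and 2.53 CPM in libraries labelled Klf5-KO (log2 fold change −1.29, SE 0.30, adjusted p = 0.013). The Nkx2-2 call was lost without Klf5-KO replicate 1 (adjusted p = 0.051) or replicate 3 (0.053).

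Factors of later or more restricted cell types fell too. Fev, an ETS factor of serotonin-producing neurons and enterochromaffin cells, went from 2.01, 2.66 and 3.16 CPM in control replicates 1, 2 and 3 to 0.803, 0.950 and 0.967 CPM in those labelled Klf5-KO (log2 fold change −1.52, SE 0.24, adjusted p = 0.0019). Isl1, a LIM homeobox factor, had 1.51, 1.88 and 1.501 CPM in the controls and 0.584, 0.779 and 0.622 CPM in libraries labelled Klf5-KO (log2 fold change −1.30, SE 0.24, adjusted p = 0.0042), and control replicate 2, not 3, was its highest library. Lmx1a, a LIM homeobox factor of enterochromaffin cells that acts on Tph1, had 0.811, 1.26 and 1.86 CPM in the controls and 0.380, 0.530 and 0.566 CPM in libraries labelled Klf5-KO (log2 fold change −1.40, SE 0.34, adjusted p = 0.016). The paired-box factor gene Pax6, which acts on the proglucagon gene Gcg, had 1.20, 1.15 and 1.37 CPM in the controls and 0.716, 0.748 and 0.580 CPM in libraries labelled Klf5-KO (log2 fold change −0.86, SE 0.23, adjusted p = 0.025). The groups did not overlap in any of these 4 genes. The Lmx1a call was lost without Klf5-KO replicate 1 (adjusted p = 0.069). Pax6 no longer passed without control replicate 2 (adjusted p = 0.051), without Klf5-KO replicate 1, 2 or 3 (0.068, 0.051 and 0.097) and with the replicate block (0.060).

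St18 and Rfx3 were not called. St18, a zinc finger factor related to Myt1, had 4.00, 5.90 and 5.44 CPM in the controls and 4.12, 3.52 and 2.60 CPM in libraries labelled Klf5-KO (log2 fold change −0.58, SE 0.22, adjusted p = 0.081), with Klf5-KO replicate 1 above control replicate 1. The St18 difference passed with DESeq2 (adjusted p = 0.036) and without control replicate 1 (0.046). It also passed with no filter on low counts and with a sex term. Rfx3, a factor of ciliated and endocrine cells that many tissues express, had the most counts of the 13 but not the highest level per length, at 28.9, 25.6 and 25.8 CPM in control replicates 1, 2 and 3 and 26.1, 20.3 and 24.5 CPM in those labelled Klf5-KO (log2 fold change −0.18, SE 0.11, adjusted p = 0.28).

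**Figure D2:**
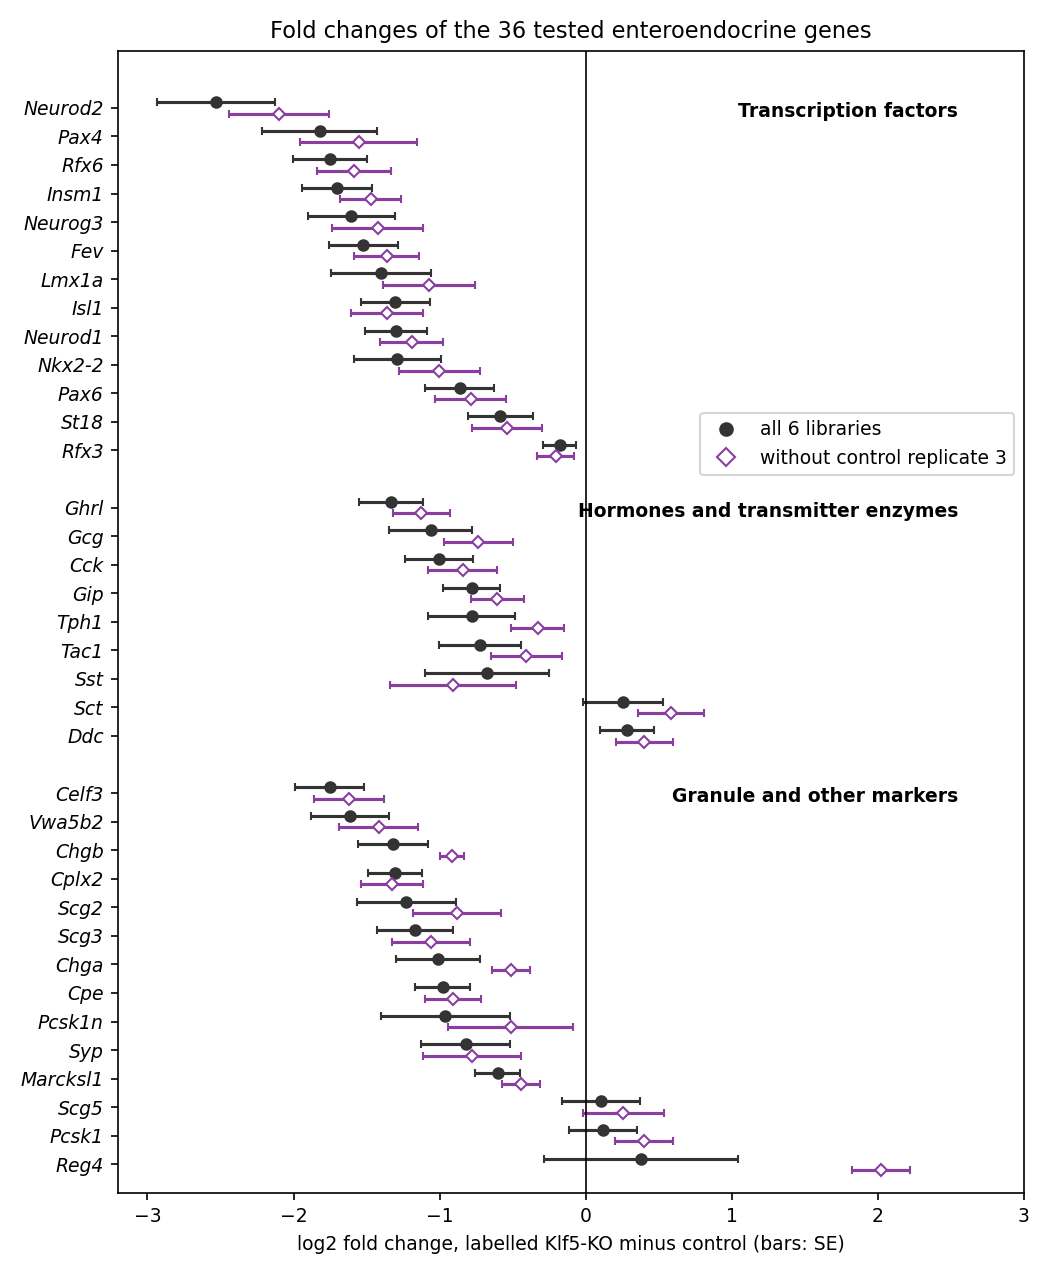
Log2 fold change (labelled Klf5-KO minus control) of the 36 tested genes with its SE, from all 6 libraries (filled circles) and without control replicate 3 (open diamonds). Transcription factors run from −2.53 (Neurod2) to −0.18 (Rfx3), and Reg4 moves from 0.38 to 2.02 when that library is left out.

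Hormone genes divided into those that fell and those that did not pass. Ghrl, which encodes ghrelin, the appetite-stimulating peptide of X/A-like cells (chromosome 6, 113716119 to 113719880), had 5.94, 6.26 and 8.94 CPM in control replicates 1, 2 and 3 and 2.34, 2.60 and 3.45 CPM in those labelled Klf5-KO (log2 fold change −1.33, SE 0.22, adjusted p = 0.0025). The groups did not overlap, and the 2.51-fold difference was the largest among the hormone genes tested. Cck, the gene of cholecystokinin, which empties the gall bladder and stimulates the pancreas, had 8.20, 6.16 and 9.75 CPM in the controls and 3.65, 5.25 and 3.14 CPM in libraries labelled Klf5-KO (log2 fold change −1.002, SE 0.23, adjusted p = 0.013). Gcg, whose product is cut into glucagon-like peptides in L cells, had 4.67, 3.81 and 7.52 CPM in the controls and 2.75, 3.07 and 1.85 CPM in libraries labelled Klf5-KO (log2 fold change −1.06, SE 0.28, adjusted p = 0.024). Gip, the gene of the incretin GIP made by K cells and the most abundant hormone gene per length, had 8.60, 8.13 and 11.7 CPM in the controls and 5.32, 4.49 and 6.70 CPM in libraries labelled Klf5-KO (log2 fold change −0.78, SE 0.19, adjusted p = 0.017). Every Klf5-KO value of these 3 genes lay below every control value. Their calls depended on single libraries. Without Klf5-KO replicate 1 the adjusted p was 0.056 for Cck, 0.065 for Gcg and 0.067 for Gip. The Gip call was also lost without Klf5-KO replicate 2 (0.064), and that of Gcg without Klf5-KO replicate 3 (0.083) and with the replicate block (0.059).

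Tph1 and Tac1, 2 genes of enterochromaffin cells, the serotonin-producing type, did not pass the test. Tph1, the rate-limiting enzyme of serotonin synthesis in the gut, had 4.36, 4.54 and 9.43 CPM in control replicates 1, 2 and 3 and 4.16, 3.02 and 3.45 CPM in those labelled Klf5-KO (log2 fold change −0.78, SE 0.30, adjusted p = 0.082). Control replicates 1 and 2 lay just above the highest Klf5-KO value and control replicate 3 was far higher, and leaving it out gave a log2 fold change of −0.33 (SE 0.18, adjusted p = 0.21). Tac1, the gene of substance P, had 6.65, 5.71 and 10.7 CPM in the controls and 4.34, 6.28 and 3.40 CPM in libraries labelled Klf5-KO, with Klf5-KO replicate 2 above control replicate 2 (log2 fold change −0.72, SE 0.28, adjusted p = 0.088). Leaving out control replicate 3 gave Tac1 a log2 fold change of −0.41 (SE 0.24, adjusted p = 0.25). With DESeq2 both passed (adjusted p = 0.023 and 0.027). Tph1 also passed without control replicate 1 (0.047), Tac1 without Klf5-KO replicate 2 (0.048), and both with no filter on low counts (0.0064 and 0.0075).

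Sct and Ddc had positive log2 fold changes that did not pass the test. Sct, the gene of secretin, which stimulates bicarbonate secretion and is made by many enteroendocrine cells late in their maturation, had 2.58, 1.91 and 3.99 CPM in control replicates 1, 2 and 3 and 3.20, 4.05 and 2.87 CPM in those labelled Klf5-KO (log2 fold change 0.26, SE 0.27, adjusted p = 0.53), with overlap between the groups. Without control replicate 3 its log2 fold change was 0.59 (SE 0.22, adjusted p = 0.087). Ddc, the aromatic amino acid decarboxylase that makes serotonin and dopamine and is also found in enterocytes, had 48.8, 43.5 and 57.8 CPM in the controls and 69.7, 42.9 and 70.2 CPM in libraries labelled Klf5-KO (log2 fold change 0.28, SE 0.18, adjusted p = 0.29). Without Klf5-KO replicate 2 Ddc was called higher (adjusted p = 0.026). Of 11 enterocyte markers 6 rose and none fell, beside 13.3% and 12.5% of all genes. Summed, the enterocyte markers stood at 1578, 1503 and 1850.5 CPM in control replicates 1, 2 and 3 and 3487, 2238 and 2922 CPM in those labelled Klf5-KO. Klf5-KO replicate 2 was the lowest of its group in both, and the part of enterocytes in the level of Ddc was not tested. Sst, the gene of somatostatin, had 4.97, 1.83 and 1.87 CPM in the controls and 2.48, 1.12 and 1.82 CPM in libraries labelled Klf5-KO, and control replicate 1 alone was high (log2 fold change −0.68, SE 0.42, adjusted p = 0.27). Nts, the neurotensin gene of N cells, and Pyy, the peptide YY gene of L cells, which are typical of more distal gut, did not pass the filter. Nts gave 18, 2 and 20 counts in the controls, against 6, 2 and 2 with the Klf5-KO label, and Pyy gave 2 to 11 counts per library.

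Both chromogranin genes fell. Chgb, which encodes chromogranin B of the dense-core granule, stood next to Reg4 per length (chromosome 2, 132781278 to 132795079) and had 93.8, 109 and 199.7 CPM in control replicates 1, 2 and 3 and 51.3, 54.9 and 54.9 CPM in those labelled Klf5-KO (log2 fold change −1.32, SE 0.24, adjusted p = 0.0041). The libraries labelled Klf5-KO lay close together and below every control, while control replicate 3 was 1.97 times the mean of the other controls. Without control replicate 3 the log2 fold change of Chgb was −0.92 (SE 0.08, adjusted p = 2.8e-04). Chga, the gene of chromogranin A and the general endocrine marker (chromosome 12, 102554969 to 102565028), had 20.6, 22.1 and 48.1 CPM in the controls and 12.9, 16.3 and 15.8 CPM in libraries labelled Klf5-KO (log2 fold change −1.01, SE 0.29, adjusted p = 0.031), again with control replicate 3 apart and no overlap. Without control replicate 3 the log2 fold change of Chga was −0.51 (SE 0.13, adjusted p = 0.024). The Chga call was lost with DESeq2 (adjusted p = 0.052), limma-voom (0.054) and robust dispersion (0.094), and without Klf5-KO replicate 1, 2 or 3 (0.12, 0.072 and 0.075).

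Of 3 secretogranin genes, 2 fell. Scg3, whose product brings granins to the granule membrane, had 0.852, 1.14 and 1.24 CPM in control replicates 1, 2 and 3 and 0.467, 0.498 and 0.470 CPM in those labelled Klf5-KO (log2 fold change −1.17, SE 0.26, adjusted p = 0.010). Scg2, the secretogranin II gene, had 0.797, 0.571 and 1.26 CPM in the controls and 0.380, 0.374 and 0.359 CPM in libraries labelled Klf5-KO (log2 fold change −1.23, SE 0.34, adjusted p = 0.026). The groups did not overlap in either gene, but Scg2 no longer passed without control replicate 3 (adjusted p = 0.062) and without Klf5-KO replicate 1, 2 or 3 (0.080, 0.073 and 0.082). Scg5, the gene of 7B2, a chaperone of prohormone convertase 2, had 0.550, 0.545 and 0.742 CPM in the controls and 0.687, 0.717 and 0.566 CPM in libraries labelled Klf5-KO (log2 fold change 0.10, SE 0.27, adjusted p = 0.81).

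Of 3 genes of precursor processing, Cpe fell and Pcsk1 and Pcsk1n did not pass the test. Cpe, the carboxypeptidase E that trims basic residues from cut precursors, had 5.15, 5.65 and 6.23 CPM in control replicates 1, 2 and 3 and 3.33, 3.05 and 2.27 CPM in those labelled Klf5-KO (log2 fold change −0.98, SE 0.19, adjusted p = 0.0053), with no overlap. Pcsk1, the prohormone convertase that makes the first cut in the gut, had 8.11, 9.96 and 14.9 CPM in the controls and 14.7, 11.7 and 9.38 CPM in libraries labelled Klf5-KO, with the groups intermingled (log2 fold change 0.12, SE 0.23, adjusted p = 0.74). Pcsk1n, which encodes proSAAS, an inhibitor of that convertase, had 0.330, 0.350 and 0.726 CPM in the controls and 0.146, 0.234 and 0.331 CPM in libraries labelled Klf5-KO (log2 fold change −0.96, SE 0.44, adjusted p = 0.14). Pam, the enzyme that adds the C-terminal amide to many hormones and which other epithelial cells also express, is not among the 38 genes and rose, from 16.7, 17.4 and 19.0 CPM to 48.6, 41.1 and 46.8 CPM (log2 fold change 1.36, SE 0.10, adjusted p = 3.9e-05).

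Of the remaining markers other than Reg4, Cplx2, Celf3, Vwa5b2 and Marcksl1 fell and Syp did not pass the test. Cplx2, the complexin that clamps and primes vesicle fusion, had 10.3, 17.0 and 13.1 CPM in control replicates 1, 2 and 3 and 6.09, 5.20 and 5.07 CPM in those labelled Klf5-KO (log2 fold change −1.31, SE 0.19, adjusted p = 0.0012), and control replicate 2, not 3, was its highest library. Celf3, an RNA-binding splicing regulator of neurons and endocrine cells, fell 3.37-fold, from 4.33, 7.05 and 7.36 CPM to 2.09, 1.88 and 1.59 CPM (log2 fold change −1.75, SE 0.23, adjusted p = 8.6e-04). Vwa5b2, a gene of endocrine cells with a von Willebrand factor A domain, had 7.81, 15.00 and 16.4 CPM in the controls and 4.40, 5.02 and 3.44 CPM in libraries labelled Klf5-KO (log2 fold change −1.61, SE 0.27, adjusted p = 0.0026). The groups did not overlap in these 3 genes. Marcksl1, the MARCKS-like actin and membrane regulator that is widely expressed, had 60.5, 66.2 and 86.1 CPM in the controls and 44.9, 55.4 and 39.9 CPM in libraries labelled Klf5-KO (log2 fold change −0.60, SE 0.15, adjusted p = 0.020). The Marcksl1 call was lost without Klf5-KO replicate 1 (adjusted p = 0.076) or 3 (0.079). Syp, the synaptophysin gene of small vesicles, had 0.948, 0.584 and 0.839 CPM in the controls and 0.365, 0.561 and 0.414 CPM in libraries labelled Klf5-KO, with no overlap but an adjusted p of 0.076 (log2 fold change −0.82, SE 0.30).

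Reg4, a secreted lectin of the regenerating family made by enteroendocrine and other secretory cells, did not pass the test over all 6 libraries. It had 14.8, 18.6 and 123 CPM in control replicates 1, 2 and 3 and 76.4, 50.1 and 77.2 CPM in those labelled Klf5-KO (log2 fold change 0.38, SE 0.67, adjusted p = 0.71), so that control replicates 1 and 2 were low, the libraries labelled Klf5-KO were intermediate and control replicate 3 was highest. Without control replicate 3 Reg4 was called higher, with a log2 fold change of 2.02 (SE 0.20, adjusted p = 4.0e-04). The 17 Paneth cell markers, of which none passed and 16 rose without control replicate 3, were in sum likewise low in control replicates 1 and 2 and highest in control replicate 3, and 16 of the 17 were highest there. The defining Paneth gene Lyz1 stood at 397, 324 and 4096 CPM in control replicates 1, 2 and 3 and 1767, 2118 and 2549 CPM in those labelled Klf5-KO. Of 11 goblet cell markers 5 fell and none rose, beside 12.5% and 13.3% of all genes. In sum the goblet cell markers did not set control replicate 3 apart. They summed to 2727, 2456 and 2553 CPM in control replicates 1, 2 and 3 and 1582, 1231 and 1310.4 CPM in those labelled Klf5-KO. By gene, 6 of the 11 were highest of all 6 libraries in control replicate 3, against 21.4% of all genes tested. Without that library 5 fell and 2 rose, beside 13.4% and 13.8% of all genes. The part of other secretory cells in the level of Reg4 was not tested.

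**Figure D3:**
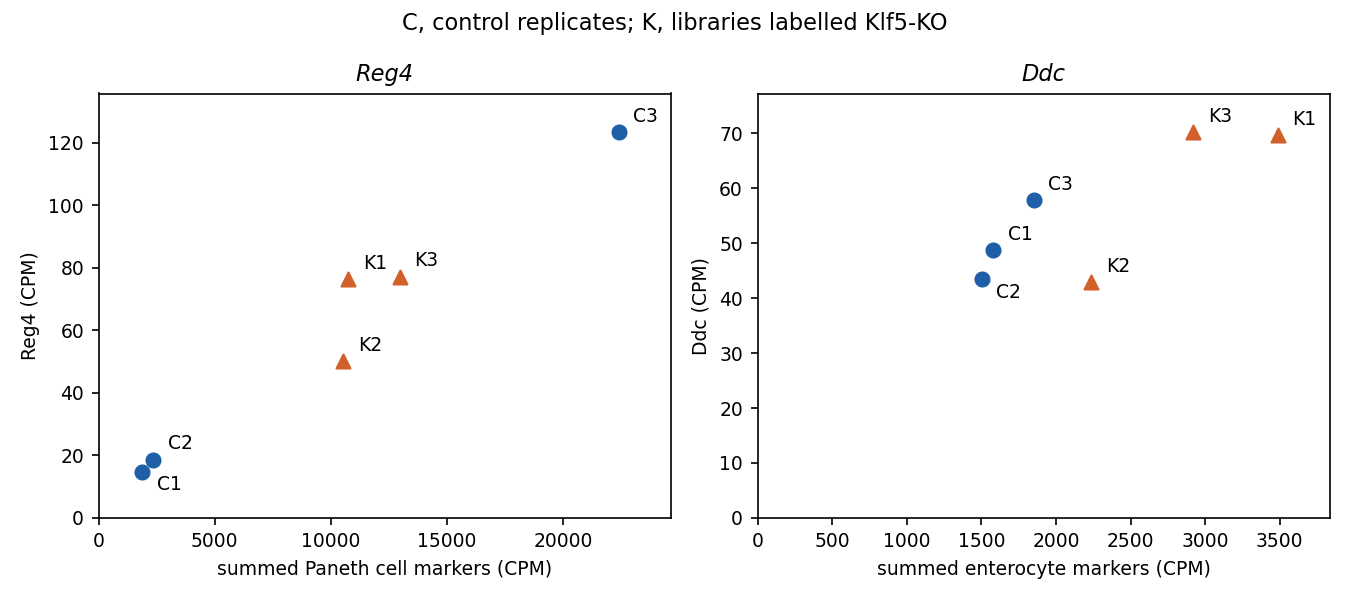
Reg4 against summed Paneth cell markers (left) and Ddc against summed enterocyte markers (right), in CPM, 1 point per library (C, control replicates; K, libraries labelled Klf5-KO). Control replicate 3 is highest for Reg4 (123 CPM) and for the Paneth markers, and Klf5-KO replicates 1 and 3 are highest for Ddc and for the enterocyte markers.

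Control replicate 3 differed from the other controls by gene. Its level over the mean of control replicates 1 and 2 was 2.25 for Chga, 2.12 for Tph1 and 2.07 for Neurod2, against 1.24 for Neurod1, 0.961 for Cplx2 and 0.885 for Isl1. Many of the genes had their lowest control value in control replicate 1, among them Neurog3, Neurod1, Insm1, Rfx6, Fev, Chga, Chgb and Cplx2. Summed over the transcription factors other than the widely expressed Rfx3, the levels were 37.3, 59.8 and 68.7 CPM in control replicates 1, 2 and 3 and 22.2, 23.2 and 16.6 CPM in those labelled Klf5-KO. The hormone and transmitter genes other than Ddc summed to 46.3, 38.4 and 64.4 CPM and 28.4, 30.1 and 26.8 CPM, and the granule and other markers other than Reg4 to 214, 255 and 397 CPM and 142, 156 and 134 CPM. The groups did not overlap in any of these sums, from which the 3 named genes were left out after their values were seen.

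**Figure D4:**
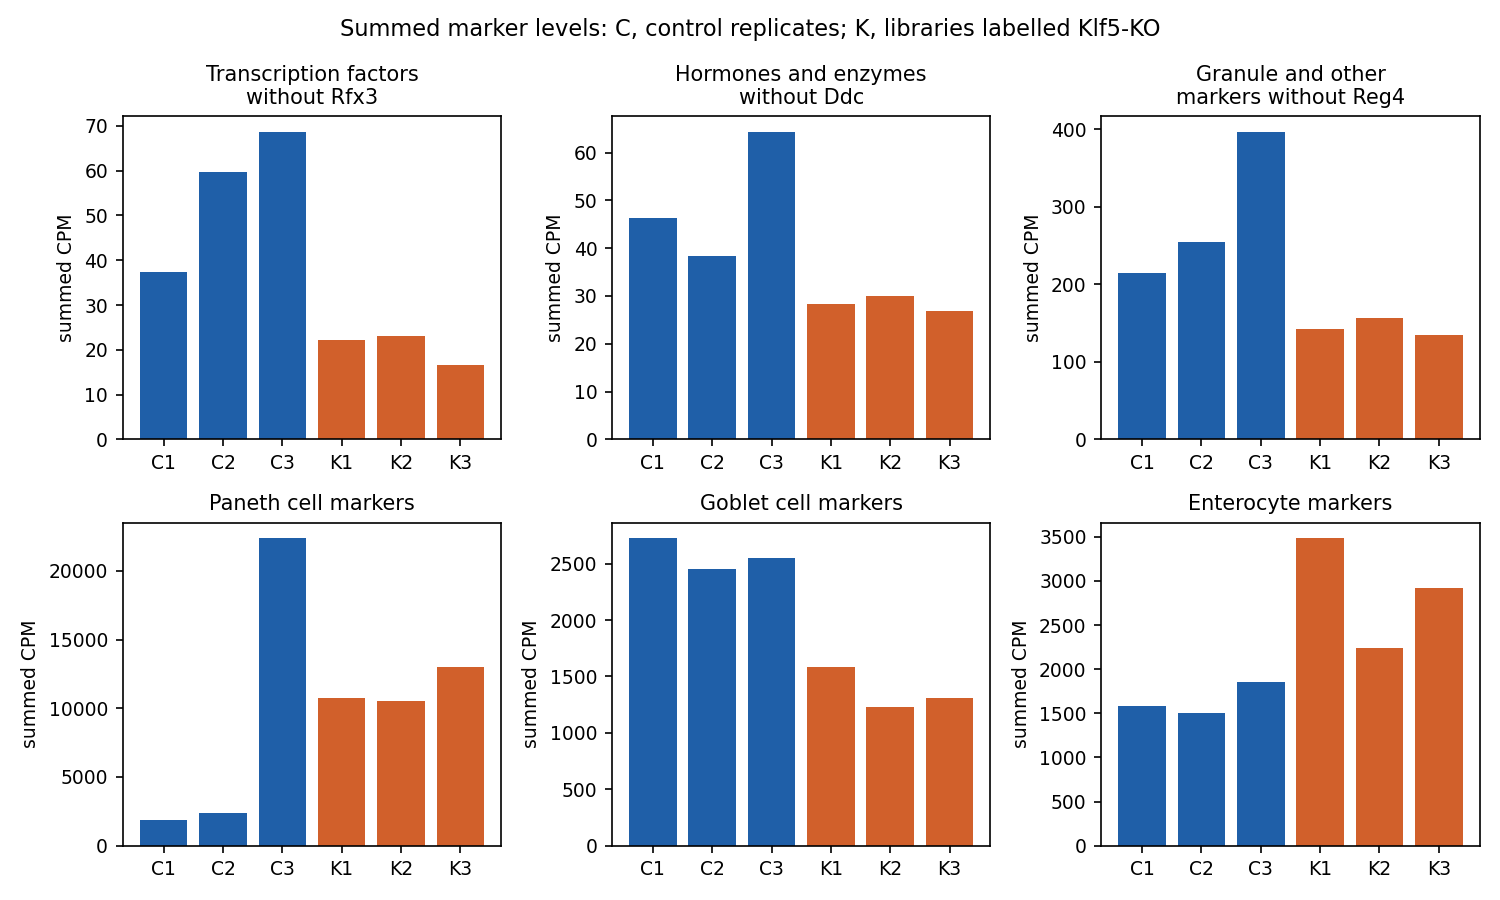
Summed CPM per library of the transcription factors without Rfx3, the hormone genes without Ddc, the granule and other markers without Reg4, and of Paneth, goblet and enterocyte markers (C, control replicates; K, libraries labelled Klf5-KO). The 3 enteroendocrine sums are lower in each K than in each C, and control replicate 3 exceeds the other controls in these sums and in the Paneth markers. With Ddc kept, the hormone sums of the groups overlap (not drawn).

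Further genes of enteroendocrine cells, which were not among the 38, were read from 4 lists. Of 81 such genes 61 were tested; 23 fell and 5 rose, beside 12.5% and 13.3% of all genes, and the median log2 fold change was −0.71. With control replicate 3 left out these were 21, 7 and −0.50, beside 13.4% and 13.8% of all genes called lower and higher. The counts of lower genes include Ffar1, which passed the filter on low counts through the controls alone. They also include Gast, whose 9 counts in Klf5-KO replicate 1 (0.131 CPM) lay below the filter's level of 0.144 CPM. By control mean, Mlxipl (321 CPM), Sox4 (269), Cacna1a (83.9) and Hes6 (65.2) stood far above Neurog3 (11.1). The part of other sorted cells in the levels of the listed genes was not tested. Among 18 other transcription factors, 9 fell and none rose, against the same 12.5% and 13.3% (median −0.73). Hes6, an inhibitor of Hes1, fell from 64.2, 69.2 and 62.2 CPM to 33.8, 33.8 and 35.0 CPM (log2 fold change −0.93, SE 0.08, adjusted p = 8.8e-05). Foxa2, a forkhead factor of gut and endocrine cells, fell from 20.0, 19.9 and 19.9 CPM to 9.71, 7.13 and 9.34 CPM (log2 fold change −1.19, SE 0.13, adjusted p = 3.0e-04). Rcor2, a corepressor of the CoREST family, fell from 6.73, 7.81 and 7.73 CPM to 2.29, 2.82 and 1.81 CPM (log2 fold change −1.69, SE 0.19, adjusted p = 3.5e-04). Mnx1, a homeobox factor of serotonin-producing endocrine cells, fell from 16.2, 21.1 and 18.3 CPM to 5.13, 3.15 and 5.91 CPM (log2 fold change −1.97, SE 0.22, adjusted p = 3.1e-04). Libraries of the 2 groups did not overlap in any of these genes. Myt1, the relative of St18, fell by 1.73 on the log2 scale (adjusted p = 0.0035).

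Other hormone genes were mostly near 0, and 3 of 16 were tested. Gast, the gastrin gene, fell from 0.825, 0.804 and 0.549 CPM to 0.131, 0.249 and 0.414 CPM (log2 fold change −1.44, SE 0.40, adjusted p = 0.028). Gast no longer passed without control replicate 1 or 2 (adjusted p = 0.071 and 0.081), without Klf5-KO replicate 1 or 2 (0.087 and 0.084) and with the replicate block (0.054). Among nutrient and hormone receptors and ion channels, 9 of 16 tested genes fell and 2 rose, beside 12.5% and 13.3% of all genes (median −1.18). Cacna1a, the pore subunit of P/Q-type calcium channels, fell from 75.0, 97.0 and 79.6 CPM to 16.6, 11.01 and 12.2 CPM (log2 fold change −2.66, SE 0.17, adjusted p = 1.4e-05). Scn3a, a sodium channel gene, fell from 3.37, 3.97 and 4.44 CPM to 1.33, 1.70 and 1.57 CPM (log2 fold change −1.35, SE 0.20, adjusted p = 0.0013). Gper1, a membrane receptor for oestrogen, fell from 7.54, 10.6 and 10.1 CPM to 3.59, 2.52 and 4.10 CPM (log2 fold change −1.47, SE 0.21, adjusted p = 0.0013). Among receptors for fatty acids, Ffar1 fell from 32, 23 and 13 counts to 4, 2 and 2 counts (adjusted p = 0.0033), too few for a fold change to be given, while Ffar3 rose (log2 fold change 0.98, SE 0.26, adjusted p = 0.022). Ffar3 no longer passed without control replicate 1 or 2 (adjusted p = 0.061 and 0.062), without Klf5-KO replicate 1 or 2 (0.083 and 0.066) and with the replicate block (0.051). The other gene that rose was Cacna1d, an L-type calcium channel subunit (log2 fold change 1.80, SE 0.31, adjusted p = 0.0030).

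Of 24 tested granule, vesicle and exocytosis genes, 4 were lower and 3 higher. These shares were near the 12.5% and 13.3% of all genes, and the median was −0.36. Scgn, the calcium sensor secretagogin, fell from 1.58, 1.65 and 1.78 CPM to 0.482, 0.576 and 0.331 CPM (log2 fold change −1.85, SE 0.26, adjusted p = 0.0013), as did the active zone gene Rimbp2 (log2 fold change −1.46) and the synaptotagmin gene Syt13 (−1.23). Besides Pam, those that rose were Rph3al, an effector of Rab GTPases in secretory cells, from 55.9, 50.5 and 61.8 CPM to 112, 101 and 89.3 CPM (log2 fold change 0.85, SE 0.11, adjusted p = 7.7e-04), as well as the vesicle SNARE gene Vamp2 (0.29). The Vamp2 call was lost without any 1 of control replicates 1 and 2 and Klf5-KO replicates 1, 2 and 3 (adjusted p = 0.11, 0.12, 0.11, 0.094 and 0.087), with no filter (0.071) and with the replicate block (0.070). Slc18a1, the vesicular monoamine transporter of enterochromaffin cells, had 2.83, 2.85 and 6.12 CPM in control replicates 1, 2 and 3 and 3.90, 4.08 and 3.99 CPM in those labelled Klf5-KO (log2 fold change 0.02, SE 0.29, adjusted p = 0.96). Without control replicate 3 it was called higher, with a log2 fold change of 0.49 (SE 0.16, adjusted p = 0.049).

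**Figure D5:**
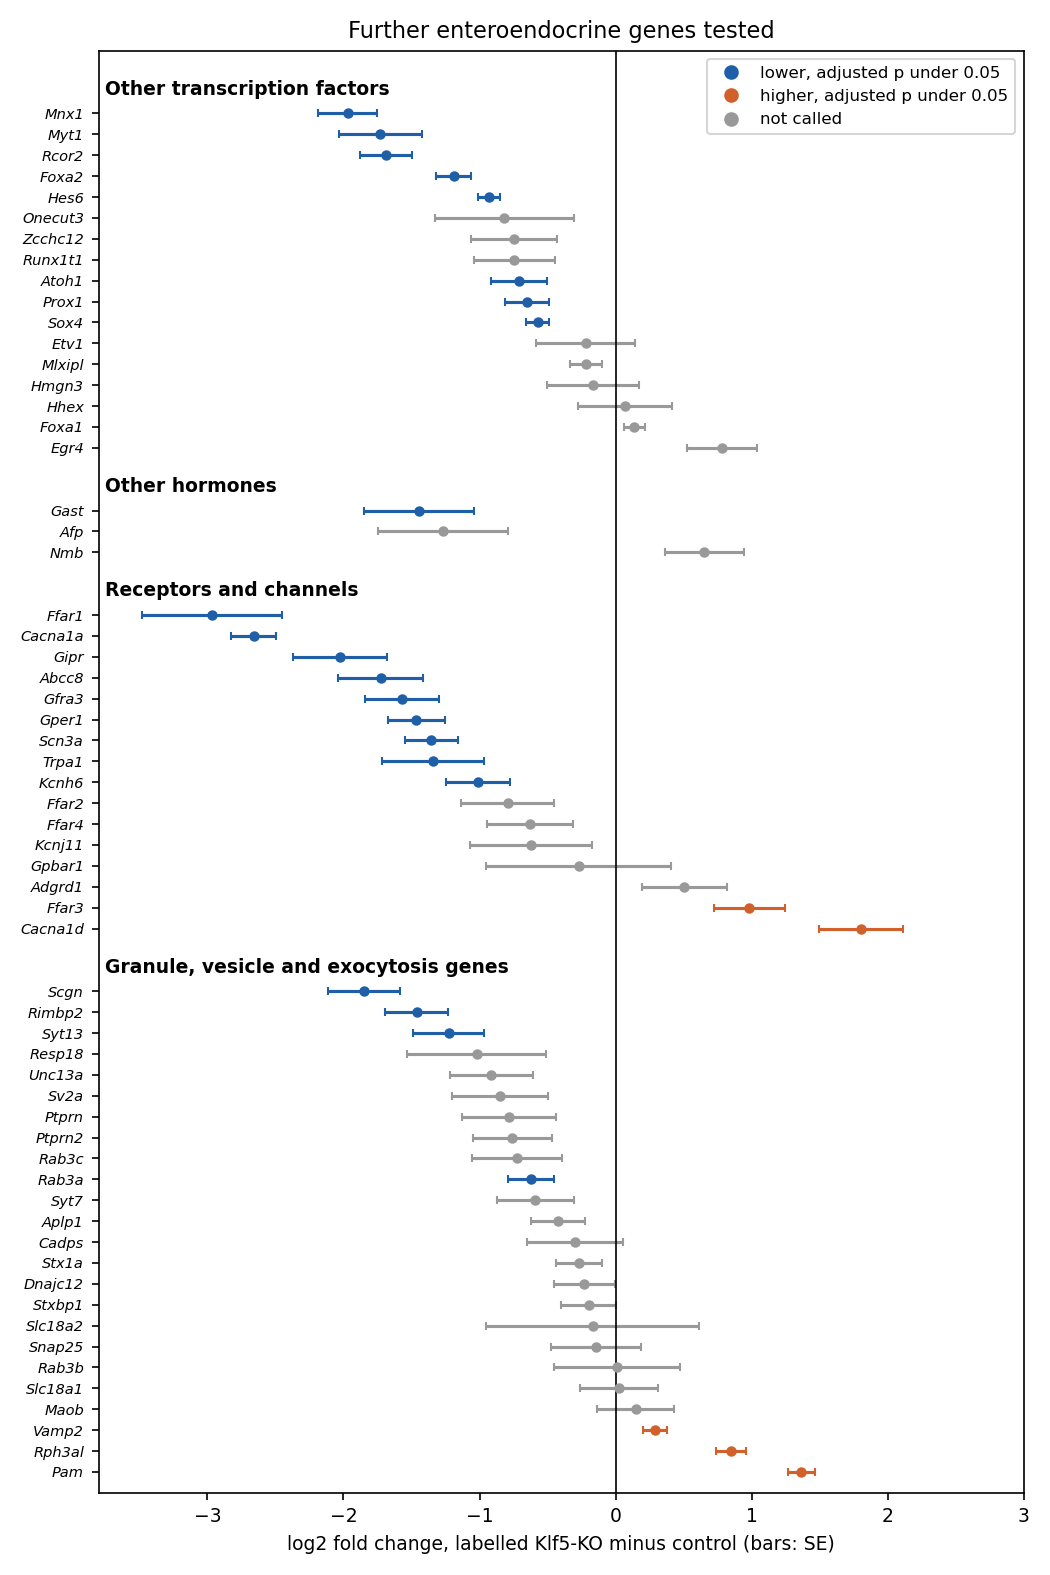
Log2 fold change (labelled Klf5-KO minus control) with its SE of the tested genes of 4 further enteroendocrine lists, with 1 gene not shown; blue marks genes lower, orange higher and grey not called at an adjusted p under 0.05. Among receptors and channels, Cacna1a lies at −2.66 and Cacna1d at 1.80.

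Many of these genes are shared with neurons, so neuronal markers were read in the same libraries. Of 14 markers of enteric neurons 7 were tested. Of these 3 (Tubb3, Prph and Ret) fell and none rose, beside 12.5% and 13.3% of all genes called lower and higher. Without control replicate 3, Prph and Ret no longer passed (edgeR adjusted p = 0.066 and 0.091). The 14 markers summed to 10.7, 11.1 and 18.7 CPM in control replicates 1, 2 and 3 and 9.45, 8.57 and 7.90 CPM in those labelled Klf5-KO. Of the 14, Stmn2 and Vip had 0 counts in all 6 libraries and Uchl1 had 0 to 5 counts per library, while 7 others passed the filter. Vip was also listed here among the other enteroendocrine hormone genes. For a gene with no counts the upper limit, set at 3 counts, was 0.0386 to 0.0487 CPM by library, and it reflects counting error alone. The part of neurons in the enteroendocrine levels was not otherwise tested. Markers of stem cells, summed over 9 genes of which 5 fell and 1 rose, stood at 10587, 11753 and 8624 CPM in control replicates 1, 2 and 3 and 5752, 4674 and 6011 CPM in those labelled Klf5-KO. Of 12 tested tuft cell markers none fell and 6 rose, and of 10 genes induced by cell dissociation none was called. Markers of enteric glia summed to 2.39 to 3.55 CPM per library. Those of immune cells summed to 47.5 to 84.3 CPM and those of stroma to 1.69 to 2.89 CPM. In these lists 1 of 3, 1 of 8 and 1 of 3 tested genes rose and none fell. The stroma gene that rose had a log2 fold change of 3.86, in a list that summed to 2.89 CPM or less per library. Over all genes tested, 12.5% were called lower and 13.3% higher.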

How the data were processed

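RNA was sequenced from 3 control and 3 Klf5-KO libraries, made with a stranded kit after ribosomal RNA removal, per the labels' protocols. Each deposited file gives raw counts of reads per gene, which the authors obtained with featureCounts 1.4.3-p1 (reverse strand; GENCODE vM16), per the file headers. STAR 2.5.2a, mm10 and DESeq2 1.18.1 are named in the submitters' processing notes. In its file header, Klf5-KO replicate 3 has the name KO-11.

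Symbols from GENCODE vM21 matched 53274 of 53379 IDs. The test was edgeR's quasi-likelihood F test (version 4.0.16, R 4.3.3), fitted on group alone with TMM factors after filterByExpr, which left 19339 genes; p-values were adjusted by Benjamini-Hochberg over all of them and called under 0.05. SE is the log2 fold change over the square root of F. CPM use TMM-scaled library sizes. Biological variation between libraries (edgeR's coefficient) was 17.0%. Every pair of libraries differed by more than counting noise (smallest chi-square over its degrees of freedom 40.3).

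The 38 genes and the other lists were chosen with earlier results of these data known. Values in every library are given for genes called, Neurog3, Chga and the most abundant gene of each role, and for others as exceptions, chosen after their values were seen. From each further list the text names up to 3 called genes, taken by adjusted p; others named there (Rcor2, Rimbp2, Syt13, Myt1, Ffar1, Ffar3, Cacna1d, Vamp2 and Slc18a1) were chosen after their values were seen. On simulated counts for this comparison (18986 genes), 38.8% of genes altered 1.5-fold were called, 50.0% of those altered 2-fold and 95.9% of those altered 4-fold. Of the simulated calls, 7.33% were unchanged genes. The simulation gave 150 calls, against 4994 in the data, so its shares need not hold where many more genes differ. Alternatives were RLE, upper-quartile and no scaling factors, no filter or CPM above 1 in 3 libraries, removal of ribosomal RNA-like and mitochondrial genes, DESeq2 1.42.0, limma-voom (limma 3.58.1), robust dispersion, a replicate block and leaving out each library. Some genes counted in these lists are not reported here by name.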

Additional observations from a re-analysis of the deposited data

How the results depend on the processing

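Under the alternatives to scaling, filter, test, dispersion and design, with all libraries kept, 20 to 27 of the 38 genes were called lower and none higher (24 and 0 in the main analysis), and over all alternatives the median log2 fold change of the tested genes ran from −1.19 to −0.89. Of the 24 genes called lower, 15 were called under each of the 18 alternatives that tested them, and of the 12 others 7 were uncalled under each. Leaving out each library in turn gave 15 to 26 genes lower and 0 to 1 higher, 8 to 12 transcription factors, 1 to 5 hormone and transmitter genes and 6 to 9 granule and other markers lower, 17 to 25 genes of the further lists lower, and 1467 to 2664 lower and 1605 to 2740 higher over all genes. The lowest count of hormone genes, 1, came without Klf5-KO replicate 1, where Ghrl was left. The 1 gene higher was Reg4 without control replicate 3 and Ddc without Klf5-KO replicate 2; with both libraries left out, a setting chosen after seeing the data, these 2 were called higher. A sex term, also added after seeing the data, gave 25 genes lower. Requiring CPM above 1 in 3 libraries, which tested fewer genes, gave 20, and no filter 27. With the replicate number as a block, 22 genes fell and, over all genes, 2088 were lower and 2286 higher. Deviations of libraries with the same number correlated at −0.0095, 0.0055 and −0.04, which shows no pairing by number. Those of the male libraries, control replicate 1 and Klf5-KO replicate 3, correlated at only 0.052. Low values therefore cannot exclude a pairing. No gene of the 38 that was called changed direction under any alternative. Depth limits genes under about 1 CPM, where Pcsk1n, Syp and Scg2 lie.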
